A study of Mus musculus with 2 samples.

Results

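The genes that release fatty acids from stored or circulating fat were followed through single-cell libraries of the mouse aorta. They are 8 genes taken by name from the 33696 features of both count matrices, whatever their values, and all 8 were found: Gpihbp1, Lipg, Angptl4, Pnpla2, Lipe, Mgll, Plin1 and Pparg. Their levels were read in adipocyte-like, capillary endothelial-like and macrophage-like cells, and compared between the genotypes within each. The data come from droplet-based sequencing of transcript 3' ends in 1 wild-type library and 1 library whose title reads Kif13b-/- and whose genotype label reads Kif13b knock down, called the Kif13b-/- library below. Kif13b encodes a kinesin motor, and the series title places the study in atherosclerosis and the clearance of dying cells by macrophages. The sources used here do not state strain, age, sex, diet or how many mice a library pools. Because each genotype has 1 library, no difference has a replicate check, no p-value was computed, and every interval is a 95% interval for counting error only.

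Fat is released in a relay between cell types. In the capillaries of fat and muscle, GPIHBP1 carries lipoprotein lipase to the vessel lumen, where the enzyme splits the triglycerides of lipoproteins; ANGPTL4 inactivates lipoprotein lipase, and endothelial lipase (Lipg) is a related enzyme that acts mainly on phospholipids. Inside cells, ATGL (Pnpla2), hormone-sensitive lipase (Lipe) and monoglyceride lipase (Mgll) act one after another on the stored triglyceride, perilipin 1 (Plin1) coats the lipid droplet of adipocytes and controls access to it, and PPARG is the nuclear receptor that drives fat cell differentiation and many lipid genes. The aorta is wrapped in perivascular fat, whose adipocytes and capillaries come along with the vessel wall.

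Of the 2 libraries, the wild-type one held 21126 barcodes with 93136569 UMIs (unique molecular identifiers, which count captured transcripts) and the Kif13b-/- library held 7766 barcodes with 64455003 UMIs. Both exceed the 6000 cells that the labels give as loaded. The analysed barcodes, 16686 and 6887, had medians of 2385 and 5760 UMIs, and 52 barcode sequences occurred in both libraries. Kif13b itself was at 70.5 and 43.8 CPM (UMIs of the gene per 1e6 UMIs of the class or library) over all analysed barcodes, 73.5 and 37.3 CPM in adipocyte-like, 99.99 and 57.6 CPM in capillary and 57.8 and 48.4 CPM in macrophage-like cells; reads of the 3' end need not cover the disrupted stretch, so this does not check the genotype. Adipocyte-like cells numbered 561 (3.36%) and 53 (0.770%), capillary endothelial-like cells 156 (0.935%) and 58 (0.842%), and macrophage-like cells 2533 (15.2%) and 1235 (17.9%), while unnamed clusters held 26.9% and 42.3% of barcodes. Depth differed within the classes as well: the median was 2068 against 5116 UMIs in adipocyte-like, 2908 against 11521.5 in capillary and 1867 against 2952 in macrophage-like cells. Macrophage-like cells came from clusters 0, 2 and 12, and class shares can follow recovery as well as tissue. None of the 8 genes was used to form or name a class.

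All 8 genes are protein-coding and were located in mm10 with GENCODE M21, and RefSeq promoter windows (GRCm38.p6) were found for 5 of them, 9 windows in all. Each window was read over the 250 bases before the start site for 3 letter patterns on both strands: AGGTCA, the core to which nuclear receptors such as PPARG bind, the direct repeat of that core with 1 base between the copies, and TTGCNNAA, a core bound by C/EBP factors, which work beside PPARG in fat cells. AGGTCA occurred in 14.03% of 32841 windows, the direct repeat in 0.03349% and TTGCNNAA in 9.567%. The internal start of Pparg, whose transcript is used mainly in fat (chr6:115421816-115422065, plus strand), and the start of Plin1 (chr7:79732777-79733026, minus strand) held 2 TTGCNNAA matches each and no AGGTCA. The other Pparg windows, 1 upstream of each of the starts at 115361144 and 115362349, held 1 AGGTCA each. Neither window of Lipe or Mgll nor that of Pnpla2 held any of the 3 patterns. The windows of Pparg and Plin1 are shown because these are the adipocyte regulator and the droplet protein of the set, and that of Pnpla2, which was also highest in adipocyte-like cells, for contrast. Capitals mark TTGCNNAA on either strand, 5′ to 3′, and of Plin1 only the 123 bases outside annotated exons are printed (chr7:79732904-79733026), which hold 1 of its matches. A match is a match of letters, and 3' counts cannot tell which start was used.
Pparg, internal start: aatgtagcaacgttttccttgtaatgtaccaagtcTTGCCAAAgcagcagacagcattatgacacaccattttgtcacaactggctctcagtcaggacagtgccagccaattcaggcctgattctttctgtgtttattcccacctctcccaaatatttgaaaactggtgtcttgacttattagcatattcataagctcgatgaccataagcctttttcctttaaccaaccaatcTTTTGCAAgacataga
Plin1: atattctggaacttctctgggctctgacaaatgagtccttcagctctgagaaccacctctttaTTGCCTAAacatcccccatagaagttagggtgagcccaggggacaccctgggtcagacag
Pnpla2: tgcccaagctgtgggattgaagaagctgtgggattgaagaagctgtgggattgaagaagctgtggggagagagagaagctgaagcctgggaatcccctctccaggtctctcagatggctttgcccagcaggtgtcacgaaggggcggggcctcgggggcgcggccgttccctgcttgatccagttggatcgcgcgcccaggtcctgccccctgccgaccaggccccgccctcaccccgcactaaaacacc

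Gpihbp1 (ENSMUSG00000022579, chromosome 15, 75596628 to 75599481, plus strand) was a capillary transcript in both libraries. It was at 622 CPM (566 to 681, 460 UMIs) in wild-type and 553 CPM (505 to 603, 499 UMIs) in Kif13b-/- capillary cells, where 66.9% and 63.8% of all its UMIs lay. Among named classes and numbered clusters, venous or activated endothelial-like cells came next in both libraries, at 17.2 and 14.9 CPM. Their interval overlapped that of the class just below but not those of capillary or macrophage-like cells. Unnamed clusters were left out of this order. Together they were at 1.18 and 6.81 CPM, and cluster 18 among them is described at the end. A Gpihbp1 UMI was seen in 65.4% and 86.2% of capillary cells, and, with every cell thinned to 1000 UMIs and 21 and 1 shallower cells left out, in 40.0% and 43.9%. Smooth muscle-like cells, which should lack the transcript, had a Gpihbp1 UMI in 0.105% of 949 wild-type cells at a median depth of 6870 UMIs. In the Kif13b-/- library 0 of 477 smooth muscle-like cells had one, at a median depth of 11712 UMIs, which allows a share of cells with a UMI of up to 0.629% (3 counts of 477 cells). In adipocyte-like and macrophage-like cells Gpihbp1 was represented by 11 and 7 and by 18 and 13 UMIs.

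The genotypes were close for Gpihbp1 once capillary cells were compared with each other. The log2 ratio of Kif13b-/- over wild type within the capillary class was -0.17 (-0.36 to 0.02). Over all endothelial-like cells the levels were instead 85.8 and 160 CPM, a log2 ratio of 0.90 (0.73 to 1.07). Capillary cells made up 10.6% and 25.8% of the UMIs of the endothelial-like class and 6.41% and 9.78% of its cells. Mgll (150 against 236 CPM), Pparg (63.3 against 113 CPM), Lipe (18.0 against 34.6 CPM) and Angptl4 (24.0 against 54.9 CPM) were likewise past 1.5-fold higher over all endothelial-like cells, as were 6.59% of all genes. Of these, only Angptl4 was past 1.5-fold within the capillary class.

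Lipg (ENSMUSG00000053846, chromosome 18, 74939322 to 74961263, minus strand) was at the edge of detection. Capillary cells held 10 and 16 of its UMIs, or 13.5 CPM (6.48 to 24.8) and 17.7 CPM (10.1 to 28.8), and the log2 ratio was 0.36 (-0.84 to 1.69), an interval that spans 0 widely. Adipocyte-like cells held 2 and 0 UMIs and macrophage-like cells 4 and 3, so no ratio was read there; a count of 0 in the Kif13b-/- adipocyte-like class allows up to 6.21 CPM. No neighbouring classes in the order of Lipg levels were separated beyond counting error in either library among the 5 highest.

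Angptl4 (ENSMUSG00000002289, chromosome 17, 33773750 to 33781830, minus strand), the inhibitor, was the 1 member past 1.5-fold in the capillary class. It had 50 UMIs in wild-type and 110 in Kif13b-/- capillary cells, or 67.6 CPM (50.1 to 89.1) and 122 CPM (100.1 to 147), a log2 ratio of 0.84 (0.36 to 1.36). The intervals of the 2 libraries did not overlap. Of 7 members with at least 20 UMIs there, 1 was past 1.5-fold higher and 0 lower, beside 10% of 8271 genes higher and 11.7% lower, so that 1 in 7 is near the background. The ratio lay between 0.75 and 1.01 in the 13 other settings that gave one, and was 0.85 without the barcodes that held a UMI of Adipoq, the adipocyte hormone. Adipoq had 0 and 6 UMIs in the capillary class, and adipocyte RNA at its own ratio of Angptl4 to Adipoq would bring 2.99 of the 122 CPM in the Kif13b-/- library. Without the 1% of cells richest in Angptl4, a single cell in the Kif13b-/- library, the ratio was 1.01. After thinning to 1000 UMIs fewer than 20 Angptl4 UMIs remained and no ratio was read; a UMI was then seen in 2.22% and 8.77% of capillary cells, against 16.7% and 44.8% unthinned and 0.843% and 1.89% in smooth muscle-like cells.

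Where the 10 leading genes of a cluster held more markers of another class than of its own, its class is left unnamed and its clusters are given by number. This held for clusters 24 (led by Igkc and Jchain), 30 (Colec11 and Vtn) and 32 (Icos and Nkg7), and cluster 10 (Myb and Trbc2) had shared its name with cluster 32. Across classes, Angptl4 was highest in adipocyte-like cells of both libraries, at 327 CPM (302 to 354) and 474 CPM (415 to 540), a log2 ratio of 0.54 (0.31 to 0.76) that was under 1.5-fold. Cluster 30 followed at 78.1 and 144 CPM (log2 ratio 0.88, 0.36 to 1.42), and fibroblast-like cells were at 47.9 and 103 CPM (1.10, 0.86 to 1.34), both past 1.5-fold higher, as were 13.2% and 6.97% of all genes there. Schwann or glial-like cells had the opposite order, with 73.1 and 30.2 CPM on 53 and 13 UMIs (-1.23, -2.27 to -0.38), where 17.8% of all genes were lower. In all, 9 of the 15 classes or clusters compared had at least 20 Angptl4 UMIs, 7 of them were above 0, 3 were past 1.5-fold higher and 1 was past it lower. The classes of a library share its preparation and are not replicates. Macrophage-like cells held 79 and 56 UMIs, or 6.89 and 6.19 CPM (-0.15, -0.68 to 0.36), in 2.17% and 3.56% of cells. This log2 ratio ran from -0.71 to 0.93 over the 16 other settings and had the other sign in 8 of them.

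**Figure D1:**
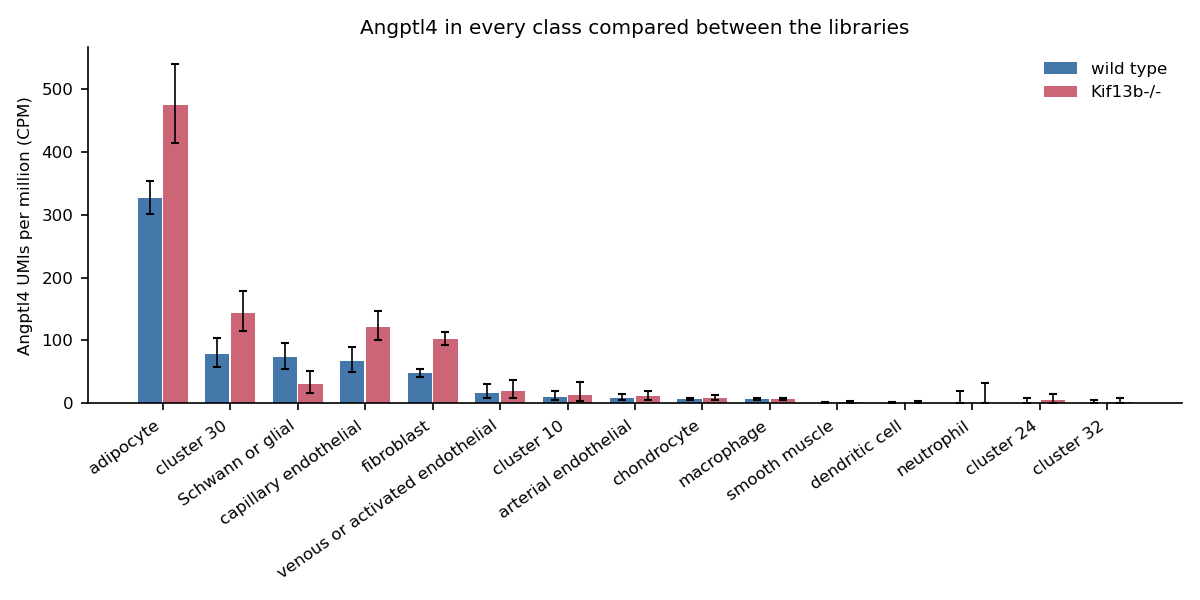
Bars give the Angptl4 level in CPM (linear axis) in each of the 15 classes or clusters compared, wild type in blue and Kif13b-/- in red; error bars are 95% Poisson counting intervals of 1 library each. Adipocyte-like cells are highest in both libraries. The red bars of adipocyte-like, capillary and fibroblast-like cells and of cluster 30 exceed the blue ones without overlap of the intervals. Schwann or glial-like cells are reversed.

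Lpl, the lipase that GPIHBP1 carries and ANGPTL4 inactivates, was at 604 and 519 CPM in capillary cells (-0.22, -0.41 to -0.03) and at 943 and 1186 CPM in adipocyte-like cells (0.33, 0.19 to 0.47). In the capillary class 10% of all genes were past 1.5-fold higher and 11.7% lower. Of the 22 genes listed for lipolysis in the vessel, which include Gpihbp1, Lipg and Angptl4, 12 were measured in that class. Of these, 1 was past 1.5-fold higher (Angptl4) and 2 were lower. The lower ones were Pcsk5, a proprotein convertase, at 86.5 against 16.6 CPM (-2.34, -3.30 to -1.55), and the lipoprotein receptor Vldlr on only 15 and 5 UMIs (-1.78, -3.69 to -0.34). Among 16 genes of endothelial fatty acid uptake, 13 were measured, 0 were higher and 1 was lower, the glycerol channel Aqp7 (178 against 113 CPM, -0.66, -1.05 to -0.28). The fatty acid translocase Cd36 was at 3481 and 2474 CPM (-0.49, -0.58 to -0.41) and the fatty acid binding protein Fabp4 at 17727 and 15667 CPM (-0.18, -0.21 to -0.14), both within 1.5-fold. In macrophage-like cells none of the 16 measured genes of the vessel list was higher and 3 were lower: Glce (18.2 against 10.7 CPM), Vldlr (138 and 55 UMIs) and Apoc1 (33 and 12 UMIs). Of all genes there, 5.25% were higher and 8.1% lower. In adipocyte-like cells 1 of 12 was higher, the apolipoprotein Apoc1 (918 against 1884 CPM, 1.04, 0.92 to 1.15), beside 11.1% of all genes. In capillary cells the median log2 ratio was -0.10 for the first list and -0.26 for the second, beside -0.01 for all genes of the class. The second list shares Meox2 (-0.56), Tcf15 (-0.49) and Rbp7 (-0.31) with the markers that named the capillary class, so its median is not independent of that naming. Of the 9 capillary markers, Timp4 (163.5 against 63.1 CPM) and Btnl9 (346 against 228 CPM) were also past 1.5-fold lower, and summed smooth muscle markers in the class were at 3375 and 1889 CPM; their part in these ratios was not tested.

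The 3 lipases of the intracellular cascade were split between cell types. Pnpla2 (ENSMUSG00000025509, chromosome 7, 141455198 to 141460743, plus strand), which removes the first fatty acid, was at 603 CPM (568 to 639) and 722 CPM (649 to 802) in adipocyte-like cells, at 93.2 CPM (72.5 to 118) and 78.6 CPM (61.4 to 99.2) in capillary cells and at 42.7 CPM (39.0 to 46.6) and 44.8 CPM (40.5 to 49.4) in macrophage-like cells. The adipocyte-like level stood apart from that of every other class in both libraries, while in the Kif13b-/- library the capillary interval overlapped that of the next class, arterial endothelial-like cells at 63.2 CPM. Lipe (ENSMUSG00000003123, chromosome 7, 25379527 to 25398710, minus strand), which acts on the diglyceride, was at 148 CPM (131 to 166) and 203 CPM (165 to 247) in adipocyte-like cells and at 71.6 CPM (53.6 to 93.7) and 73.1 CPM (56.5 to 93.0) in capillary cells. Capillaries held the next Lipe level after adipocyte-like cells in both libraries, although in the Kif13b-/- library their interval overlapped that of venous or activated endothelial-like cells at 51.1 CPM. In macrophage-like cells Lipe was at 6.20 and 7.41 CPM.

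Mgll (ENSMUSG00000033174, chromosome 6, 88724412 to 88828360, plus strand), which releases the last fatty acid, had another order: it was highest in capillary cells, at 638 CPM (582 to 698) and 613 CPM (563 to 667), above adipocyte-like cells at 106 CPM (91.7 to 122) and 114 CPM (85.8 to 148). Venous or activated endothelial-like cells came next at 120 and 149 CPM, with intervals that overlapped those of adipocyte-like cells. A Mgll UMI was seen in 76.9% and 91.4% of capillary cells (41.5% and 43.9% after thinning) and in 41.2% and 62.3% of smooth muscle-like cells (9.75% and 8.51% after thinning). In macrophage-like cells the shares were 7.42% and 8.42% (2.92% and 2.83% after thinning). Smooth muscle-like cells held 11.1% and 14.7% of all Mgll UMIs.

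Plin1 (ENSMUSG00000030546, chromosome 7, 79720218 to 79732903, minus strand) was read mainly in adipocyte-like cells. It was at 176 CPM (158 to 196, 333 UMIs) and 257 CPM (213 to 306, 124 UMIs) there, where 90.7% and 70.9% of all its UMIs lay. The capillary class held 0 and 3 UMIs, a wild-type count that allows up to 4.05 CPM, and the macrophage-like class 9 and 2, while unnamed clusters held 20 and 35. A Plin1 UMI was seen in 20.1% and 24.5% of adipocyte-like cells (9.34% and 9.62% after thinning, which left out 58 and 1 shallow cells) and in 0.158% and 0.162% of macrophage-like cells.

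Pparg (ENSMUSG00000000440, chromosome 6, 115360951 to 115490399, plus strand) was highest not in adipocyte-like but in capillary cells: 365 CPM (323 to 411) and 346 CPM (308 to 386) against 186 CPM (167 to 207) and 137 CPM (106 to 174). These classes did not overlap in either library, but in the Kif13b-/- library the adipocyte-like interval overlapped those of cluster 32 at 122 CPM and cluster 30 at 116 CPM. Pparg was also present in macrophage-like cells, at 33.4 CPM (30.2 to 36.9) and 41.0 CPM (37.0 to 45.4), and was seen in 9.75% and 14.3% of them, against 2.0% and 4.40% of the deeper smooth muscle-like cells. After thinning, which left out 441 and 140 macrophage-like cells, the shares were 3.35% and 3.105% against 0.217% and 0.213%. Of all Pparg UMIs, adipocyte-like cells held 17.3% and 4.57%, capillary cells 13.3% and 21.6% and macrophage-like cells 18.8% and 25.7%.

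**Figure D2:**
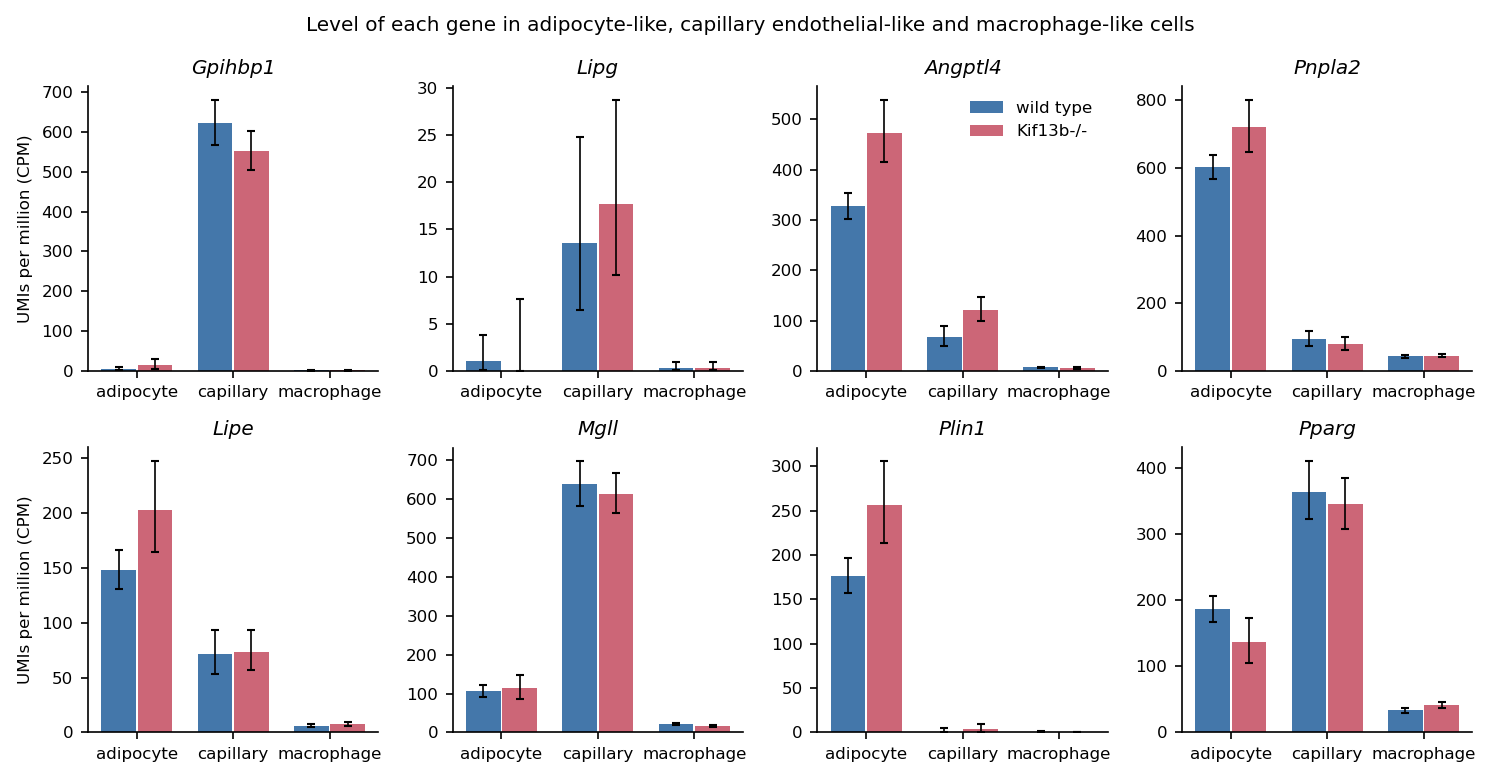
Each panel gives 1 gene's level in CPM (linear axis from 0, own scale per gene) in adipocyte-like, capillary endothelial-like and macrophage-like cells, wild type in blue and Kif13b-/- in red, with 95% Poisson counting intervals. Gpihbp1, Mgll and Pparg are highest in capillaries and Angptl4, Pnpla2, Lipe and Plin1 in adipocyte-like cells, in both libraries.

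**Figure D3:**
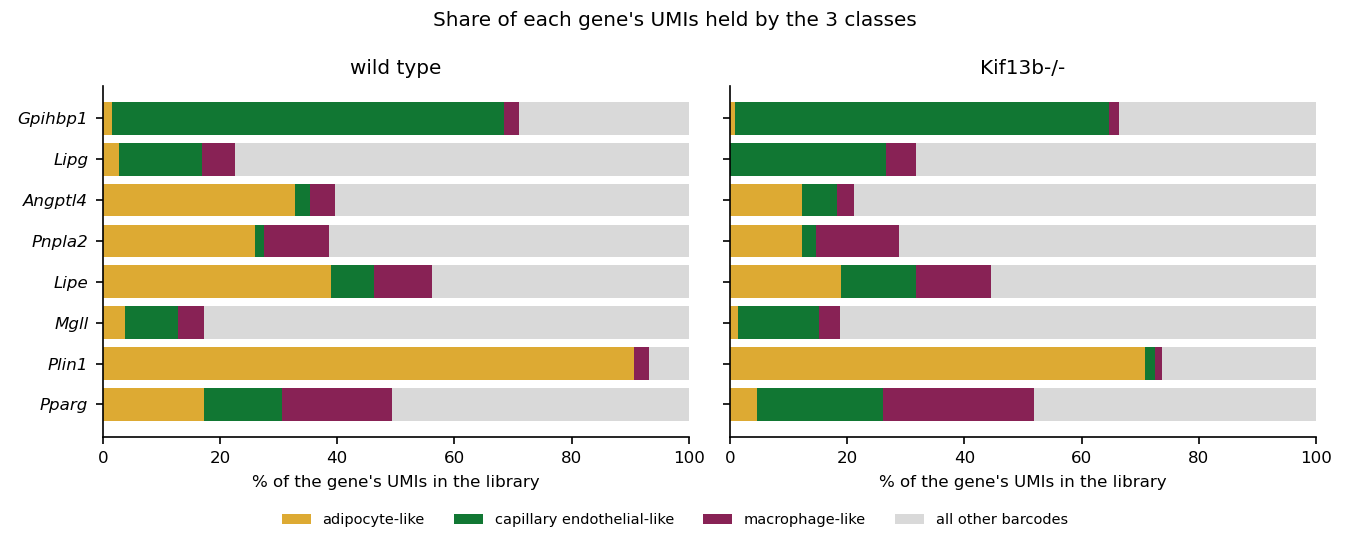
Stacked bars divide the UMIs of each gene in a library, in percent, between adipocyte-like (yellow), capillary endothelial-like (green), macrophage-like (purple) and all other barcodes (grey), one panel for each genotype. Most Gpihbp1 UMIs lie in capillaries and most Plin1 UMIs in adipocyte-like cells, and the adipocyte-like share of Angptl4 is 32.7% in wild type, against 12.3% where that class is smaller.

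Within adipocyte-like cells no member was past 1.5-fold between the genotypes. Of 6 members with at least 20 UMIs, 0 were higher and 0 lower by that ratio, beside 29.3% of 9218 genes past it (11.1% higher and 18.3% lower), and the members' median log2 ratio was 0.36 beside -0.06 for all genes. Plin1 (0.55, 0.23 to 0.84), Angptl4, Lipe (0.46, 0.11 to 0.80) and Pnpla2 (0.26, 0.08 to 0.44) had intervals above 0. Pparg had an interval below 0 (-0.44, -0.85 to -0.06), and Mgll spanned it (0.12, -0.35 to 0.54). Plin1, Angptl4 and Pparg kept their sign in the 12 other settings, whereas Lipe, Pnpla2 and Mgll had the other sign in 2, 3 and 4 of them. Plin1 was past 1.5-fold in 7 of the 12 settings, and with the median of all genes set to 0 it and Angptl4 were past that ratio. The class rests on few barcodes in the Kif13b-/- library, and 47.0% of its 66 Pparg UMIs came from a single cell.

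**Figure D4:**
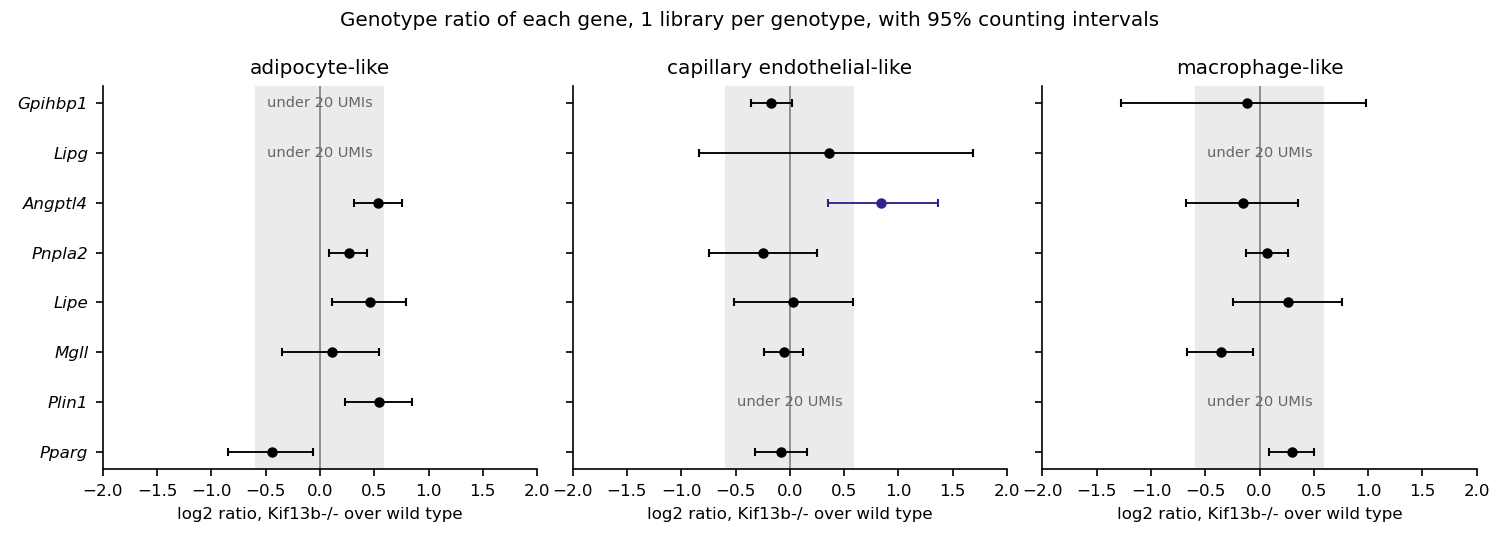
Points give the log2 ratio of Kif13b-/- over wild type for each gene in adipocyte-like, capillary endothelial-like and macrophage-like cells, with 95% counting intervals of 1 library per genotype, and the grey band marks ratios under 1.5-fold either way. Angptl4 in capillaries (0.84) is the only point outside the band, and genes with fewer than 20 UMIs over both libraries carry no point.

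The adipocyte-like class was uneven inside. Its defining gene Adipoq was read in 316 of 561 wild-type barcodes (56.3%) and in 23 of 53 Kif13b-/- barcodes (43.4%). These held 90.1% and 98.4% of the Plin1 UMIs of the class, 91.4% and 97.4% of those of Angptl4, 90.6% and 97.7% of those of Pnpla2 and 88.9% and 98.0% of those of Lipe. Mgll was spread wider, with 76.5% and 85.5%. The same barcodes held 1427007 of the 1890123 wild-type UMIs of the class and 346971 of the 483107 Kif13b-/- UMIs, against which these shares are to be read. Mgll was at 107 CPM with and 101 CPM without an Adipoq UMI in wild type, and at 135 and 58.8 CPM in the Kif13b-/- library. Barcodes without an Adipoq UMI were shallower (medians of 1734 and 4282.5 against 2497.5 and 13247 UMIs), with Plin1 at 71.3 and 14.7 CPM and the fibroblast gene Dcn at 5502 CPM in both libraries, against 2003 and 1112.5 CPM in barcodes with an Adipoq UMI. In barcodes with an Adipoq UMI, Plin1 was at 210 CPM (187 to 235) and 352 CPM (292 to 420), Angptl4 at 396 CPM (364 to 430) and 643 CPM (561 to 733), Pnpla2 at 723 CPM (680 to 769) and 983 CPM (881 to 1093), Lipe at 174 CPM (153 to 197) and 277 CPM (224 to 338) and Pparg at 210 CPM (187 to 235) and 173 CPM (132 to 223). The division was made after the class was seen. Its counting intervals separated the libraries for the first 4 genes and not for Pparg, but the share of all genes so separated was not computed. An Adipoq UMI is more easily seen in a deeper barcode, and the 316 and 23 barcodes were unlike in depth and in Dcn. Their part in these levels was not tested.

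Lists of related genes were counted in the adipocyte-like class, in which 11.1% of all genes were past 1.5-fold higher and 18.3% lower. Of 24 genes of intracellular lipolysis, members included, 22 were measured, 6 were past 1.5-fold higher and 2 lower, Cidea among them, with a median of 0.30. Among the higher ones were the droplet protein Cidec (271 against 522 CPM, 0.94, 0.72 to 1.16), the triglyceride hydrolase Ces1d (65.6 against 130 CPM, 0.997, 0.53 to 1.44) and G0s2, the inhibitor of ATGL (76.7 against 116 CPM, 0.60, 0.12 to 1.05). Abhd5, the co-activator of ATGL, was at 116 and 172 CPM (0.57, 0.18 to 0.93), just under 1.5-fold. Of 12 brown fat genes, 10 were measured, 0 were higher and 6 lower, with a median of -0.97; Cidea and Ucp1, like Cidec, Retn and Adrb3, were also among the markers that named the class. Cidea had 88 wild-type and 0 Kif13b-/- UMIs, at least 7.50-fold lower against a floor of 3 counts in that library, with an interval of the log2 ratio that ends at -2.58, the uncoupling protein Ucp1 had 70 and 2 UMIs, and the deiodinase Dio2 had 102 and 11 UMIs (-1.19, -2.29 to -0.35). Cox8b, another brown fat gene, was at 99.5 and 106 CPM (0.10). Among 8 white fat genes 4 were measured and 1 was higher, the hormone Retn (114 against 294 CPM, 1.37, 1.05 to 1.68). Among 6 measured genes of fat cell precursors 1 was higher, Pi16 (42.3 against 104 CPM, 1.30, 0.75 to 1.82), and 1 lower. Pi16 is also among the fibroblast markers, which summed to 5433 and 5022 CPM in the adipocyte-like class. The part of fibroblast RNA in its level was not tested.

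Lists of the regulators gave a mixed picture in the adipocyte-like class, beside the 11.1% of all genes higher and 18.3% lower there. Of 30 genes of PPARG partners, co-regulators and targets, all 30 were measured, with 5 higher, 1 lower and a median of 0.18. Pck1, an enzyme of glycerol synthesis for fat storage and a PPARG target, was at 133 and 259 CPM (0.96, 0.64 to 1.27), and the oxysterol receptor Nr1h3 at 33.9 and 62.1 CPM (0.89, 0.20 to 1.52). Of 23 genes of the hormonal control of lipolysis, 19 were measured, with 1 higher, the β-adrenergic receptor Adrb3 of fat cells (22.8 against 49.7 CPM, 1.14, 0.34 to 1.88), and 4 lower, among them the kinase Prkg1 (475 against 296 CPM, -0.68, -0.95 to -0.43). In the list of fatty acid uptake, 4 of 12 measured genes were higher, among them the transporter Slc27a1 (117 against 203 CPM) and Fabp5 (64.5 against 118 CPM), and Acsl4 was lower (166 against 76.6 CPM, -1.10, -1.65 to -0.62). In fat synthesis and storage, 2 of 16 were higher and 2 lower, among them Dgat2 (78.8 against 120 CPM) and the elongase Elovl6 (67 and 5 UMIs, -1.65, -3.44 to -0.48).

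Apart from Angptl4, the members measured in capillary cells were within 1.5-fold. Mgll differed by -0.06 (-0.24 to 0.12), Pparg by -0.08 (-0.32 to 0.16), Lipe by 0.03 (-0.51 to 0.58) and Pnpla2 by -0.25 (-0.74 to 0.25). The intervals of Gpihbp1, Mgll and Pparg, the 3 with most UMIs, lay wholly within 1.5-fold either way. With each cell given the same weight Pnpla2 was at 0.59. The lists that follow stand beside 10% of the 8271 genes of the class past 1.5-fold higher and 11.7% lower. Of the genes around Pparg, 21 of 30 were measured, 3 were higher and 3 lower. The related receptor Ppard was at 40.5 and 112 CPM (1.45, 0.86 to 2.10), the C/EBP factor Cebpb at 390.5 and 194 CPM (-1.01, -1.29 to -0.73) and Zfp423, a factor of fat cell commitment, at 56.8 and 88.6 CPM (0.63, 0.09 to 1.22). Of only 4 measured genes of fat cell precursors, 3 were higher, among them Zfp521 (60.8 against 114 CPM, 0.90, 0.39 to 1.45) and Zfp423, which is counted in both lists. Of 2 white fat genes the co-repressor Nrip1 was lower (103 against 50.9 CPM, -1.01, -1.57 to -0.47). In intracellular lipolysis, 15 of 24 were measured, with 2 higher and 2 lower, Aqp7 and Abhd5 (64.9 against 38.8 CPM, -0.74, -1.41 to -0.08). Among hormonal control genes, 13 of 23 were measured: 2 were higher, among them the insulin receptor Insr (109 against 210 CPM, 0.94, 0.56 to 1.34), and 3 lower, among them the adenylyl cyclase Adcy9 (52.7 against 13.3 CPM, -1.95, -3.06 to -1.02).

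In macrophage-like cells 6 members had at least 20 UMIs, and 0 were past 1.5-fold, beside 13.4% of 14296 genes (5.25% higher and 8.1% lower). Pparg was at 33.4 and 41.0 CPM (0.30, 0.09 to 0.51), Mgll at 20.6 and 16.0 CPM (-0.36, -0.67 to -0.06), Pnpla2 differed by 0.07 (-0.12 to 0.26) and Lipe by 0.26 (-0.25 to 0.76). The members' median was -0.02 and that of all genes -0.01. Lpl, which macrophages also make, was at 336 and 471 CPM (0.49, 0.42 to 0.55) and within 1.5-fold, whereas Fabp4 (239 against 139 CPM, -0.79, -0.89 to -0.69) and G0s2 (51 and 24 UMIs, -0.73, -1.51 to -0.02) were lower. Within clusters 0, 2 and 12, Fabp4 differed by -0.53, -0.56 and -0.71, past 1.5-fold only in cluster 12. G0s2 differed by -0.23 in cluster 0 and had under 20 UMIs in clusters 2 and 12. The part of the cluster mix in the class ratios was not tested. Of 17 measured genes of intracellular lipolysis, members included, 1 was higher and 2 were lower, and of 28 around Pparg 1 was higher, the co-activator Ppargc1b (46 and 59 UMIs, 0.70, 0.12 to 1.29), and 3 were lower. In the uptake list 4 of 15 were lower, among them the caveolin Cav1 (105 against 62.7 CPM) and Tcf15 (38 and 13 UMIs), a factor of capillary endothelium. In the brown fat list 4 of 7 were lower, on few UMIs (Kcnk3 118 and 41, Dio2 53 and 22, Cpt1b 41 and 18), in the hormonal list 3 of 19, among them Adcy6 (64 and 30 UMIs), and in the precursor list Pi16 was higher (73 and 108 UMIs) and Zfp521 and Cd55 lower (65 and 25, 61 and 20 UMIs). Several of these are transcripts of other cell types, whose part in the macrophage-like levels was not tested.

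The macrophage-like class joined 3 clusters that the libraries filled differently, and in both libraries the intervals of Mgll and Pparg in cluster 12 lay apart from those in the other clusters. Cluster 0, led by Ccl3 and Tnf, held 57.8% and 35.1% of its cells in the 2 libraries, cluster 2, led by Cd5l and Gpnmb, 15.7% and 34.5%, and cluster 12, led by Fcrls and C1qa, 26.5% and 30.4%. Mgll was at 51.1 and 43.7 CPM in cluster 0 and at 33.3 and 48.9 CPM in cluster 2, but at only 2.23 and 0.998 CPM in cluster 12, on 15 and 6 UMIs. The smooth muscle gene Acta2 was also lowest in cluster 12, with 2908 and 3401 CPM in cluster 0, 1731 and 2855 CPM in cluster 2 and 176 and 158 CPM in cluster 12; its part in the Mgll level was not tested. Pparg had another order, with 41.7 and 50.9 CPM in cluster 12, 25.7 and 24.4 CPM in cluster 0 and 9.98 and 17.3 CPM in cluster 2. Pnpla2 lay between 36.6 and 48.1 CPM in all 3, with overlapping intervals.

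**Figure D5:**
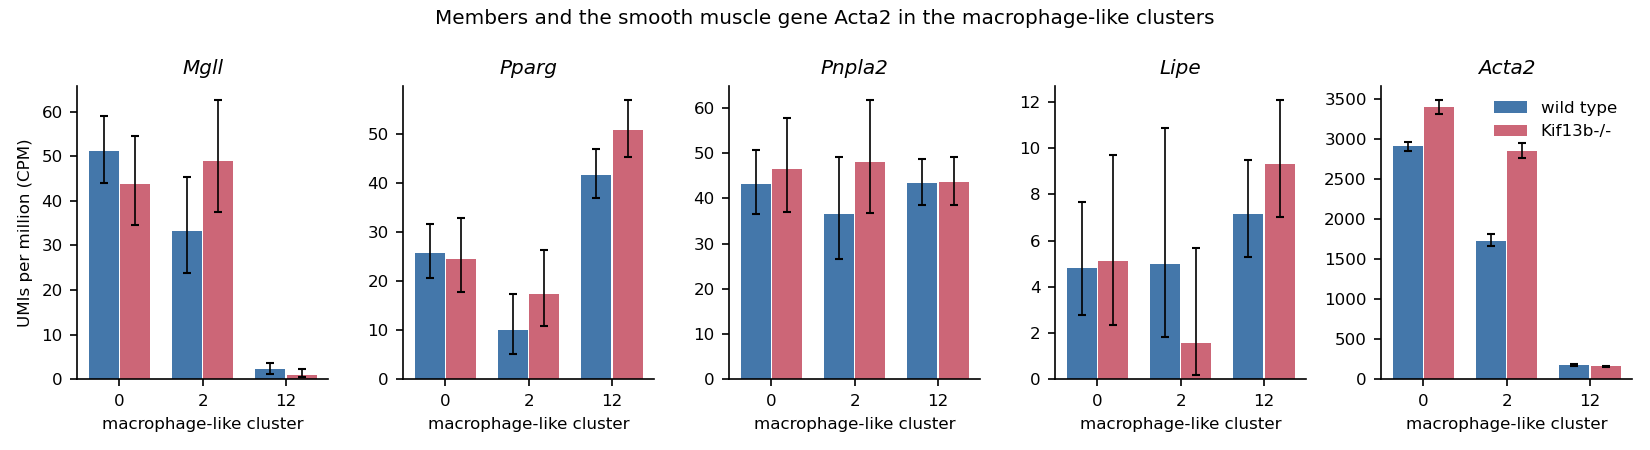
Levels of Mgll, Pparg, Pnpla2, Lipe and the smooth muscle gene Acta2 in CPM (linear axes from 0, own scale per panel) in macrophage-like clusters 0, 2 and 12, wild type in blue and Kif13b-/- in red, with 95% Poisson counting intervals. Mgll and Acta2 are both lowest in cluster 12, Pparg is highest there, and the Pnpla2 intervals overlap across the clusters.

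The genotype ratios of Mgll and Pparg had wide intervals within the clusters, and whether the ratios differ between clusters was not tested. Mgll differed by -0.22 (-0.63 to 0.17) in cluster 0, 0.55 (-0.04 to 1.17) in cluster 2 and -1.09 (-2.82 to 0.29) in cluster 12. Pparg differed by -0.07 (-0.63 to 0.46), 0.77 (-0.28 to 1.95) and 0.29 (0.05 to 0.53) in the same order. Only the last of these 6 intervals left out 0. Adipocyte RNA at its own ratio to Adipoq would bring 36.2% of the wild-type Plin1 level in macrophage-like cells, 7.65% of that of Angptl4 and under 4% of those of the other 6 members, and in the Kif13b-/- library 12.2% of that of Plin1 and under 1% of the others.

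In the remaining classes and clusters, members past 1.5-fold are given with the share of all genes past it in that direction there. Pparg was higher in smooth muscle-like cells (20 and 31 UMIs, 0.81, -0.03 to 1.71, beside 5.70% of all genes) and in cluster 30 (46.2 against 116 CPM, 1.32, 0.68 to 2.01, beside 13.2%). It was also higher in cluster 32 (18.4 against 122 CPM, 2.69, 1.90 to 3.67, beside 12.2%), where 76 Kif13b-/- UMIs came from 9.68% of 93 cells, 44 of them from a single cell. It was lower in dendritic cell-like cells (35.9 against 20.9 CPM, -0.78, -1.34 to -0.25, beside 7.34%) and in cluster 10, on 27 and 3 UMIs (-1.49, -4.05 to 0.02, beside 23.3%).

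Lipe was higher in venous or activated endothelial-like cells, on 4 and 24 UMIs (2.76, 1.35 to 4.88, beside 13.1% of all genes), and in fibroblast-like cells, on 9 and 23 UMIs (1.40, 0.28 to 2.75, beside 6.97%). Mgll was higher in dendritic cell-like cells, on 4 and 16 UMIs (2.17, 0.67 to 4.34, beside 11.2%). Pnpla2 was higher in chondrocyte-like cells (14.6 against 22.2 CPM, 0.62, 0.20 to 1.00, beside 9.44%) and lower in cluster 10, on 35 and 6 UMIs (-0.96, -2.60 to 0.21, beside 23.3%). Pnpla2, measured in 14 of the 15 classes or clusters, was above 0 in 9 of them.

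The genes whose class pattern was most like that of a member were sought over 32 points, each a class or numbered cluster in 1 library, from 17 classes or clusters, by Pearson's r of log2(CPM + 1) among 8124 candidates (8125 for Lipg). The points share 2 libraries and differ in depth, so r is given as a description. Gpihbp1 was closest to Gm29007 (0.93), the VEGF receptor Kdr (0.90) and the capillary marker Cd300lg (0.89). Plin1 was closest to Ankef1 (0.99), Ces1f (0.95) and Mup11 (0.94), and Pnpla2 to Ankef1 (0.87), the glycerol-3-phosphate dehydrogenase Gpd1 (0.86) and Mup11 (0.86). Lipe was closest to the adipocyte marker Thrsp (0.81), to Cd36 (0.80) and to Pnpla2 (0.80). Mgll was closest to Inhbb (0.88), Pitpnm2 (0.84) and Cdh13 (0.83), and Angptl4 to the laminin chain Lamb1 (0.94) and the chemokines Ccl19 (0.86) and Cxcl12 (0.86). Pparg had lower values, led by Evl (0.67), Rgl1 (0.66) and Cxcl9 (0.66), and Lipg, at the edge of detection, was closest to Sh2d3c (0.77), 1600002D24Rik (0.76) and Ets2 (0.73).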

How the data were processed

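The input was 1 filtered gene-by-barcode matrix of UMI counts per library, as deposited by the authors. Per the file headers, Cell Ranger 8.0.1 made the deposited counts; the submitters' processing notes name mm10. The sources used here give no annotation. Libraries were made with 10x 3' chemistry per the labels' protocols, and 0 columns were left unused. The 26 symbols that several features share were not looked up by name.

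Filters required 500 UMIs, 300 genes and no more than 20% mitochondrial UMIs. Scrublet's automatic threshold marked 0 doublets in both libraries, so the highest-scoring 3146 (15.9%) and 428 (5.85%) barcodes were removed at an expected 0.8% per 1000 barcodes. Python 3.11.15 with scanpy 1.11.5, numpy 2.4.6, scipy 1.17.1, scikit-learn 1.9.0 and igraph 0.11.9 was used. Leiden clustering (2000 variable genes without the 8 members, 30 components, 15 neighbours, resolution 1) gave 38 clusters, of which 24 were named: at least 3 and 50% of a class's markers raised 2-fold and detected in 10% of cells, a mean log2 fold of 1 and a lead of 1 over the next class that also qualified, and 30 cells. Endothelial-like cells were clustered again on 922 genes raised in them (resolution 0.5) into 8 clusters. These naming thresholds were chosen with the clusters in view. The names of 3 classes, of which a cluster's top 10 genes held more markers of another class than of its own, were set aside, and their 4 clusters are given by number. The adipocyte-like class met 6 of 12 markers, the capillary class 9 of 9.

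UMIs were summed per class and library and divided by the class total. Intervals are exact Poisson (levels), exact conditional binomial (ratios) and Clopper-Pearson (shares), at 95%. Log2 ratios used a prior count of 0.5 and were called past 1.5-fold on at least 20 UMIs; a 0 was bounded by 3 counts. The ratio code was tested on simulated data. The members, gene lists and markers were chosen with earlier results of these data known. Named genes are the 8 members, 6 partners (Lpl, Cd36, Fabp4, G0s2, Abhd5, Adipoq), up to 3 genes with most UMIs per list and class among those past 1.5-fold whose interval excludes equality, and the 3 genes most like each member. Cox8b, Timp4, Btnl9, Dcn and Acta2 were added as context after their values were seen. Alternatives varied clustering, filters, doublets, weighting, scaling, thinning, prior and minimum. The 1% of cells richest in a gene was taken per class and library, as a single cell where the class was small. A few genes that this rule names are not reported here.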

Additional observations from a re-analysis of the deposited data

Results flagged for a closer look

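Gpihbp1 appeared outside the classes compared, in unnamed clusters, with 33 UMIs (1.18 CPM) in the wild-type and 198 UMIs (6.81 CPM) in the Kif13b-/- library, a log2 ratio of 2.51 (1.99 to 3.11). It drew attention because the signal lies in barcodes that entered no comparison and exceeds the wild-type level. Of the 198 UMIs, 183 lay in cluster 18, which held 1308 Kif13b-/- barcodes and 8 wild-type barcodes and 23.4% of the Gpihbp1 UMIs of its library. The same cluster held Angptl4 at 45.0 CPM (27.2% of the UMIs of that gene in the library), Plin1 at 2.58 CPM and Adipoq at 12.4 CPM, and was led by Ighg2b, mitochondrial transcripts and C1qb. What these barcodes are was not tested.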

How the results depend on the processing

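With 1 library per genotype, no setting shows how animals vary. No paired analysis was possible because each genotype has 1 library. Of the adipocyte-like members, the count past 1.5-fold, 0 as reported, was 2 at clustering resolution 2 (Angptl4 and Plin1), 4 without doublet removal, 3 with at least 2000 UMIs, 4 with at most 10% mitochondrial UMIs, 2 with the median of all genes at 0, 3 after thinning (Plin1 higher, Lipe and Pparg lower), 3 without the 1% of cells richest in the gene and 1 with no minimum of UMIs (Gpihbp1, on 11 and 7 UMIs). In capillary cells the count, 1 as reported, was 2 with each cell weighing the same (Angptl4 and Pnpla2), 2 with capillary cells from the first clustering (Angptl4 and Lipg, an alternative chosen after seeing the data) and 0 of 3 measured after thinning. In macrophage-like cells the count, 0 as reported, was 1 at clustering resolution 2 (Mgll), 1 with at most 10% mitochondrial UMIs (Angptl4), 2 with cells classed by marker score (Angptl4 and Mgll), 2 with each cell weighing the same (Gpihbp1 and Lipe), 1 after thinning (Angptl4), 1 with no minimum (Plin1), 1 in cluster 2 alone (Pparg) and 2 in cluster 12 alone (Angptl4 and Mgll), the last 2 chosen after seeing the data. The causes were not tested. The share of all genes past 1.5-fold was computed for the reported setting only, so the counts under other settings have no background beside them. Single ratios ranged over the settings from 0.28 to 1.06 for Angptl4, 0.19 to 1.12 for Plin1, -0.81 to 0.99 for Lipe, -0.16 to 0.79 for Pnpla2, -0.46 to 0.37 for Mgll and -0.91 to -0.00 for Pparg in adipocyte-like cells. In capillary cells they ranged from -0.23 to 0.16 for Gpihbp1, -0.13 to 0.20 for Mgll and -0.12 to 0.26 for Pparg, none of them past 1.5-fold. In macrophage-like cells they ranged from -0.71 to 0.93 for Angptl4, -1.09 to 0.55 for Mgll, -0.22 to 0.77 for Pparg, -0.10 to 0.39 for Pnpla2, -0.64 to 0.40 for Lipe and -1.67 to 0.21 for Gpihbp1. Lipg, and Plin1 outside adipocyte-like cells, rest on few UMIs.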
